A study of Homo sapiens with 24 samples.

Results

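Fatty acid synthesis and desaturation genes were followed in 4 human neuroblastoma cell lines treated with GSK-J4: ACLY, ACSS2, ACACA, FASN, SCD, ELOVL6, ELOVL5, FADS1, FADS2 and SREBF1. These 10 genes were found by their symbols among the 39772 genes listed in at least 1 of the authors' deposited tables, and all 10 are among the 12649 genes tested in every line. The set was chosen by pathway and with its measured effects in these lines already known, so the effects and their differences between lines are given as a description and carry no test of the list. In SK-N-BE(2), the line resistant to the compound, 8 of the 10 genes rose and none fell, where 1.86% of all tested genes with a mean normalized count of 100 or more rose. In LAN5 7 fell and 2 rose, beside 38.9% of such genes lower and 28.2% higher. In IMR5 7 fell and 1 rose (35.7% and 34.0%), and in SK-N-FI 5 fell and 1 rose (24.1% and 25.0%). Because the effects were known when the set was chosen, nothing is read from these counts against the shares.

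GSK-J4 enters cells and blocks the histone demethylases KDM6A and KDM6B, which act on trimethylated lysine 27 of histone H3. The study compared, in each line, 3 untreated libraries with 3 libraries of cells given 1 µM GSK-J4 for 72 hours, 24 libraries in all. The labels call LAN5, IMR5 and SK-N-FI sensitive and SK-N-BE(2) resistant, and give MYCN as amplified in LAN5, IMR5 and SK-N-BE(2) and as wildtype in SK-N-FI. Each line is 1 established line with no other allele or agent named, the sensitive and resistant classes are confounded with line identity, and the labels do not say whether the libraries of a group came from separate cultures, so p-values measure only the spread between these libraries.

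Cells build fatty acids from cytosolic acetyl-CoA, which ACLY makes from citrate and ACSS2 from acetate. ACACA carboxylates acetyl-CoA to malonyl-CoA, and FASN joins these units into palmitate. ELOVL6 lengthens saturated chains and SCD puts the first double bond into them, while FADS2, FADS1 and ELOVL5 work on polyunsaturated chains. SREBF1 encodes SREBP-1, the membrane-bound transcription factor that drives these genes once it is released by cleavage, and NF-Y and Sp1, which bind CCAAT and GC-rich boxes, are its known partners at several of their promoters.

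Promoter sequences are shown for 4 of the genes because their responses differ: SCD and ACLY went down in LAN5 and IMR5 and up in SK-N-BE(2), ACSS2 went up in all 4 lines, and SREBF1 is the regulator. Each is the part of the 250 bases before a RefSeq transcript start that lies outside GENCODE exons, read 5′ to 3′ on the gene's strand from RefSeq's GRCh38.p14 table, with CCAAT or its complement ATTGG in capitals. SCD is at chr10:100346983-100347123 on the plus strand, ACLY at chr17:41919023-41919272 on the minus strand, ACSS2 at chr20:34874739-34874941 on the plus strand and SREBF1 at chr17:17837003-17837236 on the minus strand.
SCD: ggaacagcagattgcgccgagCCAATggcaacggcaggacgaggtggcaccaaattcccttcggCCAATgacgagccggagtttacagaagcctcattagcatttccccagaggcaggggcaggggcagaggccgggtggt
ACLY: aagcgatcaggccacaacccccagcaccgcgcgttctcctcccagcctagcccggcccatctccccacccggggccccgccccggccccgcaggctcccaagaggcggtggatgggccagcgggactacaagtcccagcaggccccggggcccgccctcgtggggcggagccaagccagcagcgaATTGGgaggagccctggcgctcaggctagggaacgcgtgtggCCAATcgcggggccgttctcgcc
ACSS2: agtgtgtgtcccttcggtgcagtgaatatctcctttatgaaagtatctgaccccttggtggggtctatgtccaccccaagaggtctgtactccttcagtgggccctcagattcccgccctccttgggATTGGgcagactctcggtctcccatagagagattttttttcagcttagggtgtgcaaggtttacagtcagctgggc
SREBF1: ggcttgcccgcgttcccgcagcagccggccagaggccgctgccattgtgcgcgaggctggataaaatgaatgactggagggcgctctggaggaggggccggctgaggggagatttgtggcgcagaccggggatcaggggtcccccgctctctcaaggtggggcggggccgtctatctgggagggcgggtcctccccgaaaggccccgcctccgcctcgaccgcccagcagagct

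The table held 14 promoter windows for 9 of the 10 genes. The windows of ACLY overlap each other, as do those of FADS2, so the 14 are not all separate. The same CCAAT copies of ACLY are counted in each of its windows. In the 250 bases before the start, on either strand, 7 of the 14 windows held CCAAT, against 32.0% of all 35116 windows of this length. Counted by gene, where any window of a gene suffices, CCAAT was in 5 of the 9 and at least 2 copies in 1 window were in 4, ACACA, ACLY, ELOVL5 and SCD, a count with no like share over all windows, 9.53% of which held at least 2. The GC box GGGCGG, whose matches can share bases with ATTGG, was found in 11 of the 14 windows and in 42.6% of all windows. TCACNCCAC, a spelling of the sterol regulatory element, was in none of the 14 windows and in 0.883% of all windows, and the E-box CACGTG was in 1 window, of ELOVL5, and in 6.34% of all windows. SCD and ACLY each held 2 CCAAT copies, and ELOVL6, FADS1, FADS2 and SREBF1 held none. ACSS2 held 1 in the window printed in part above and 0 in the window of its other start (chr20:34876362-34876611). A match is a description of the sequence and was not tied to binding.

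Levels below are mean normalized counts of a gene scaled so that a line's table sums to 1000000 (CPM), and the untreated and treated levels were derived from the authors' mean over both groups and the fold change. The tables were normalized separately, so a level set across lines carries that limit, and values of single libraries were not used. The sign of a fold change is read as treated over untreated, and the table taken as SK-N-FI was matched by its near name, so every direction and every SK-N-FI value rests on these readings. In bulk RNA, fewer cells of a kind and less RNA per cell cannot be told apart. Gene positions are those of GENCODE release 29 on GRCh38. A gene is said to rise or fall where the authors' adjusted p from DESeq2 is under 0.05. Deposited fold changes were taken to have been shrunken toward 0 by a prior, most strongly in SK-N-BE(2), which is an assumption. Lines are therefore compared on values from which this prior was removed.

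The 2 enzymes of acetyl-CoA supply moved in opposite directions in the sensitive lines. ACLY (ENSG00000131473, chr17:41866908-41930542, minus strand), which cleaves citrate, stood at 597 untreated and 432 treated in LAN5, 583 and 318 in IMR5, 363 and 248 in SK-N-FI, and 523 and 606 in SK-N-BE(2). The treated level was the lower one in the 3 sensitive lines and the higher one in the resistant line. In the authors' deposited tables ACLY fell, at a log2 fold change of -0.47 ± 0.0540 (SE) in LAN5 with a DESeq2 adjusted p of 8.02e-17, at -0.87 ± 0.0626 in IMR5 (2.24e-42) and at -0.54 ± 0.123 for SK-N-FI (9.74e-05). It rose by 0.20 ± 0.0348 in SK-N-BE(2) in the authors' deposited table (adjusted p = 1.43e-06). With the prior removed, the loss in IMR5 was larger than that in LAN5 by 0.41 ± 0.0829 on the log2 scale, and SK-N-BE(2) lay 0.85 ± 0.0622 above the mean of the sensitive lines.

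ACSS2 (ENSG00000131069, chr20:34872146-34927962, plus strand), which activates acetate, was the member that rose in all 4 lines. Its level went from 17.2 to 25.3 in LAN5, 9.09 to 13.6 in IMR5, 50.1 to 67.7 in SK-N-FI and 26.1 to 33.6 in SK-N-BE(2). The authors' deposited tables give log2 fold changes of 0.55 ± 0.113, 0.57 ± 0.147, 0.43 ± 0.102 and 0.28 ± 0.0702 in the same order, with adjusted p of 4.26e-06, 0.000366, 0.000218 and 0.00632. With the prior removed the rise was 35.0% in SK-N-FI, 49.8% in IMR5, 47.5% in LAN5 and 28.7% in SK-N-BE(2), and SK-N-BE(2) differed from the mean of the others by -0.16 ± 0.117, about the size of its error. ACSS2 was also among the least abundant members: per kilobase of exon its untreated level was between 1.69 in IMR5 and 9.31 in SK-N-FI, against 69.6 to 114 for ACLY.

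The palmitate-making enzymes fell in LAN5 and IMR5 and rose in SK-N-BE(2). FASN (ENSG00000169710, chr17:82078333-82098332, minus strand) went from 784 to 450 in LAN5, 712 to 412 in IMR5, 158 to 115 in SK-N-FI and 580 to 694 in SK-N-BE(2). The authors' deposited tables give -0.80 ± 0.0584 (adjusted p = 5.86e-41), -0.78 ± 0.0724 (6.11e-26), -0.44 ± 0.166 (0.0282) and 0.23 ± 0.0523 (0.00145). LAN5 and IMR5 hardly differed in this loss, by -0.01 ± 0.0935 with the prior removed. ACACA (ENSG00000278540, chr17:37084988-37406818, minus strand) makes the malonyl-CoA that FASN uses, and its level went from 231 to 136 in LAN5, 225 to 162 in IMR5, 131 to 90.3 in SK-N-FI and 384 to 435 in SK-N-BE(2). In the authors' deposited tables ACACA fell, at -0.76 ± 0.0693 in LAN5 and -0.47 ± 0.0634 in IMR5, and rose by 0.16 ± 0.0496 in SK-N-BE(2) with an adjusted p of 0.0422, near the threshold. The value in SK-N-FI was of like size but noisy, -0.49 ± 0.232 in the authors' deposited table, and did not pass (adjusted p = 0.0941).

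SCD (ENSG00000099194, chr10:100347124-100364834, plus strand), the stearoyl-CoA desaturase, fell to about the same extent in LAN5 and IMR5 and rose in SK-N-BE(2), where its deposited rise was the largest of the 10. With the prior removed ACSS2 (0.36 ± 0.0919) and SREBF1 (0.35 ± 0.0771) had rises in SK-N-BE(2) as large as that of SCD (0.34 ± 0.0375). The SCD level went from 651 to 317 in LAN5, 908 to 440 in IMR5, 403 to 433 in SK-N-FI and 713 to 901 in SK-N-BE(2). With the prior removed SCD fell by 51.3% in LAN5, fell by 51.5% in IMR5 and rose by 26.4% in SK-N-BE(2). The authors' deposited tables give -1.03 ± 0.0574 (adjusted p = 1.04e-70) in LAN5, -1.04 ± 0.0643 (5.48e-57) in IMR5, and a rise of 0.32 ± 0.0357 (3.62e-16) in SK-N-BE(2). SK-N-FI, although sensitive, stood apart from LAN5 and IMR5 at this gene, with 0.10 ± 0.107 in the authors' deposited table (adjusted p = 0.522). The prior-removed difference of LAN5 minus SK-N-FI was -1.14 ± 0.123, and that of SK-N-FI minus SK-N-BE(2) was -0.23 ± 0.115. By deposited fold change, which shrinkage lowers more in genes of low mean, SCD ranked 35 from the top in SK-N-BE(2). The ranking held the 10926 genes whose mean normalized count reached 100.

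**Figure D1:**
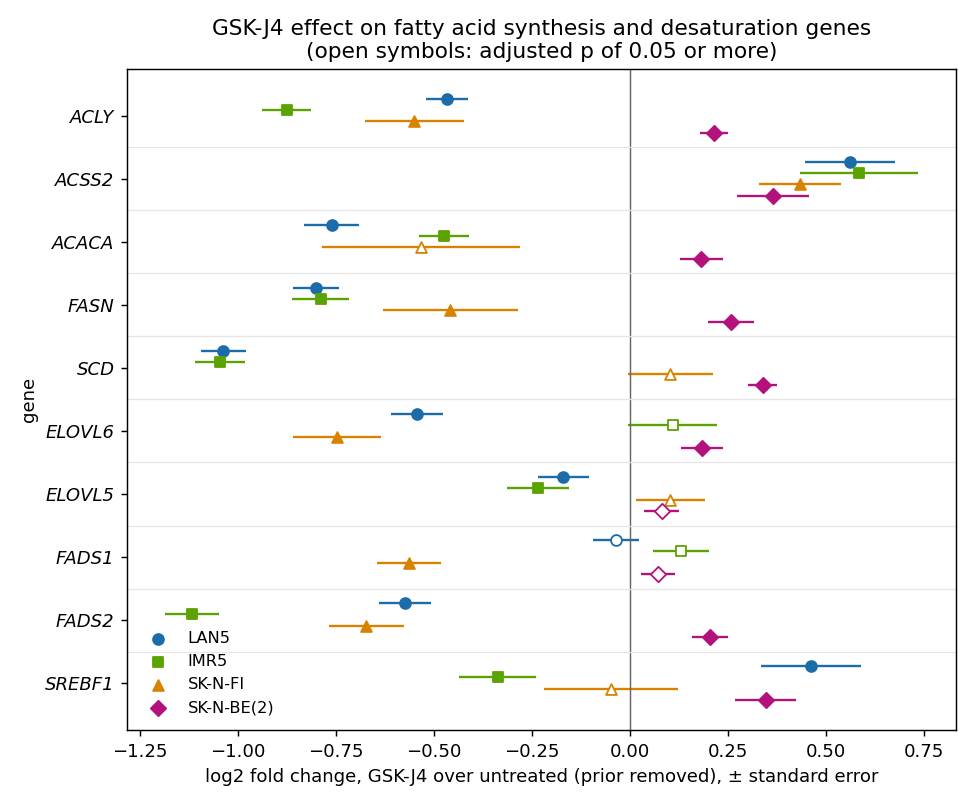
Log2 fold change after GSK-J4 with the prior removed (x axis) for each of the 10 genes (y axis) in the 4 lines, with standard errors as bars and open symbols where the adjusted p is 0.05 or more. The 10 diamonds of SK-N-BE(2) all lie above 0, while most symbols of the other lines lie below it, and ACSS2 lies above 0 in every line.

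The elongases did not move together. ELOVL6 (ENSG00000170522, chr4:110045846-110199199, minus strand) went from 148 to 101 in LAN5, 19.3 to 20.8 in IMR5, 113 to 67.1 in SK-N-FI and 144 to 163 in SK-N-BE(2). It fell in LAN5 (-0.54 ± 0.0659, adjusted p = 2.41e-15) and SK-N-FI (-0.73 ± 0.110, 5.48e-10) and rose in SK-N-BE(2) (0.17 ± 0.0484, 0.0318) in the authors' deposited tables. IMR5, where its level was lowest, had 0.11 ± 0.112 in the authors' deposited table (adjusted p = 0.484). ELOVL5 (ENSG00000012660, chr6:53267398-53349179, minus strand), which extends polyunsaturated chains, changed little: from 247 to 220 in LAN5, 239 to 203 in IMR5, 214 to 230 in SK-N-FI and 263 to 278 in SK-N-BE(2). The authors' deposited tables give ELOVL5 -0.17 ± 0.0656 in LAN5 (adjusted p = 0.0259) and -0.23 ± 0.0779 in IMR5 (0.00772). The LAN5 call was lost when its fold changes were centred on the median of the genes whose mean reached 100 (-0.08, recomputed adjusted p = 0.333). Neither SK-N-FI (0.10 ± 0.0865, adjusted p = 0.407) nor SK-N-BE(2) (0.07 ± 0.0417, 0.572) passed for ELOVL5 in the authors' deposited tables.

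The polyunsaturated desaturases FADS1 (ENSG00000149485, chr11:61799625-61829318, minus strand) and FADS2 (ENSG00000134824, chr11:61792980-61867354, plus strand) are neighbours on opposite strands, and the annotated span of FADS1 lies wholly inside that of FADS2. Libraries kept strand, but the use of strand in the authors' counting is not given in the sources used here, and without it reads from the shared 29694 bases cannot be told apart. FADS2, the delta-6 desaturase, went from 240 to 162 in LAN5, 268 to 124 in IMR5, 230 to 144 in SK-N-FI and 273 to 315 in SK-N-BE(2). It fell, at -0.57 ± 0.0657, -1.11 ± 0.0685 and -0.66 ± 0.0948 in the sensitive lines and rose by 0.19 ± 0.0423 in SK-N-BE(2) in the authors' deposited tables, with adjusted p of 4.11e-17, 2.83e-57, 6.05e-11 and 0.000954. FADS1, the delta-5 desaturase, went from 250 to 244 in LAN5, 370 to 404 in IMR5, 354 to 240 in SK-N-FI and 284 to 298 in SK-N-BE(2). In the authors' deposited tables FADS1 fell in SK-N-FI, at -0.56 ± 0.0806 (adjusted p = 1.05e-10), and did not pass elsewhere, with -0.04 ± 0.0583, 0.13 ± 0.0707 and 0.07 ± 0.0404 in LAN5, IMR5 and SK-N-BE(2) (adjusted p = 0.696, 0.131 and 0.652). The prior-removed FADS1 effect of LAN5 exceeded that of SK-N-FI by 0.53 ± 0.10, and that of IMR5 exceeded it by 0.69 ± 0.108.

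The regulator SREBF1 (ENSG00000072310, chr17:17810399-17837002, minus strand) had opposite signs in LAN5 and IMR5. Its transcript went from 14.9 to 20.5 in LAN5, 30.8 to 24.4 in IMR5, 9.48 to 9.17 in SK-N-FI and 50.7 to 64.4 in SK-N-BE(2). The authors' deposited tables give 0.46 ± 0.126 (adjusted p = 0.00105), -0.33 ± 0.0973 (0.00185), -0.05 ± 0.165 (0.875) and 0.28 ± 0.0634 (0.000974). SREBF1 rose in LAN5, where ACLY, ACACA, FASN, SCD, ELOVL6 and FADS2 fell, and fell in IMR5. The prior-removed difference of LAN5 minus IMR5 was 0.80 ± 0.161. These are transcript levels and do not measure cleavage of the protein.

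**Figure D2:**
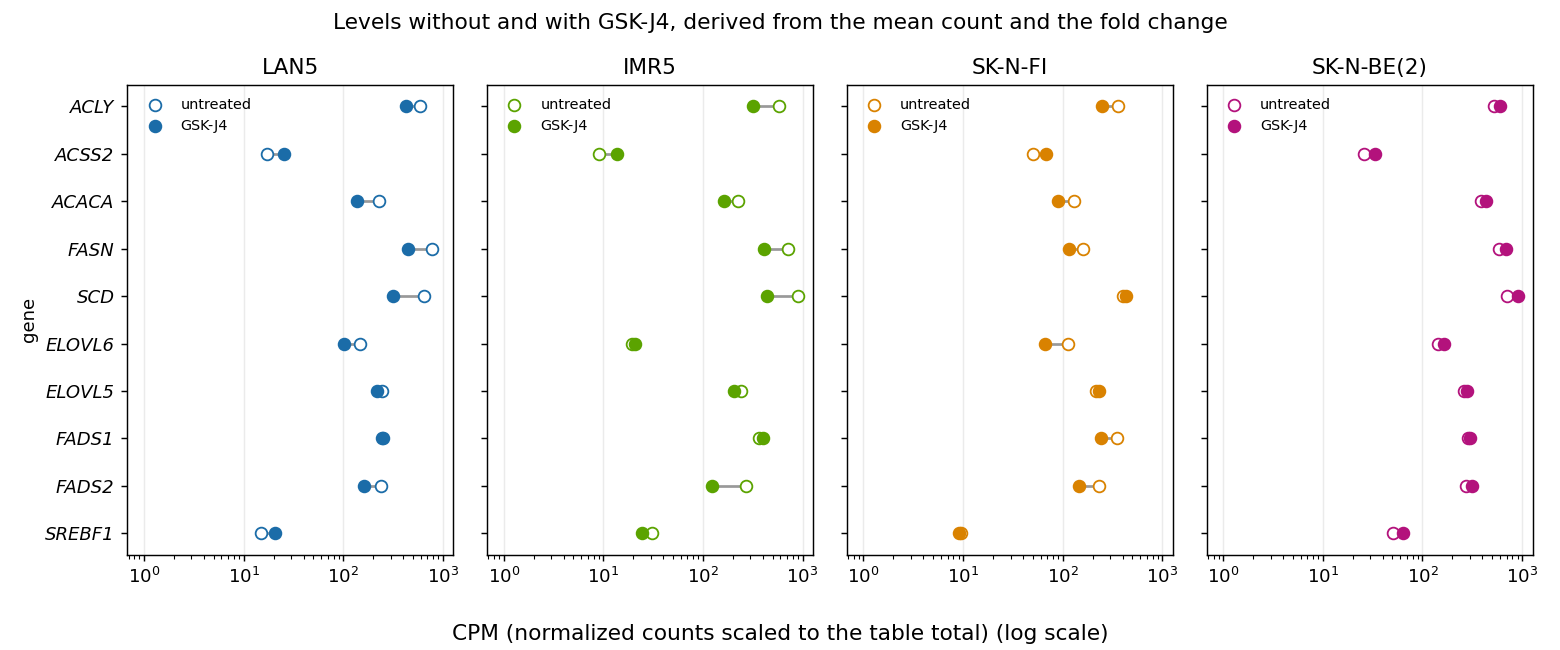
Untreated (open) and treated (filled) levels of the 10 genes (y axis) in CPM (x axis, log scale), 1 panel per line, derived from the authors' mean and the fold change. SCD goes from 651 to 317 in LAN5 and from 713 to 901 in SK-N-BE(2), while FADS1 and ELOVL5 show short lines in both.

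Counted by line, 7 members fell, 2 rose and 1 did not pass in LAN5, and 7 fell, 1 rose and 2 did not pass in IMR5. In SK-N-FI 5 fell, 1 rose and 4 did not pass, and in SK-N-BE(2) none fell, 8 rose and 2 did not pass, with all 10 fold changes positive, so that 0 were lower at an unadjusted DESeq2 p under 0.05 as well. Of all genes tested, 19.2% were called lower and 22.5% higher in LAN5, 21.6% and 22.6% in IMR5, 14.8% and 16.8% in SK-N-FI, and 0.858% and 1.62% in SK-N-BE(2). The median fold change over the 10 members was -0.47 in SK-N-FI, -0.40 in IMR5, -0.50 in LAN5 and 0.20 in SK-N-BE(2), and that over all genes tested was 0.01, 0.02, 0.09 and -0.00017 in the same order, in the authors' deposited tables.

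Far fewer genes were called in SK-N-BE(2) than in the other lines, so the members were also ranked within each line. The ranks use deposited fold changes, which shrinkage lowers more in genes of low mean. Shrinkage was taken to be strongest in SK-N-BE(2), so percentiles are not strictly on a common scale across lines. The members' deposited fold changes in SK-N-BE(2) lay between percentiles 80.8 and 99.7 of the genes whose mean reached 100, with a median of 97.8. The median percentile was 22.0 for LAN5, 25.3 for IMR5 and 16.8 for SK-N-FI. SCD stood at percentile 58.7 in SK-N-FI, 4.34 in IMR5, 5.44 in LAN5 and 99.7 in SK-N-BE(2), and FADS2 at 9.02 in SK-N-FI, 3.57 in IMR5, 18.5 in LAN5 and 97.6 in SK-N-BE(2). ACSS2 was high in all 4 rankings, from 81.1 in SK-N-FI up to 99.4 in SK-N-BE(2). Members made up 8 of the 217 genes called higher in SK-N-BE(2), or 3.69%, and 10 of the 13407 genes tested there. The set was chosen with these effects known, so nothing is read from this share.

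**Figure D3:**
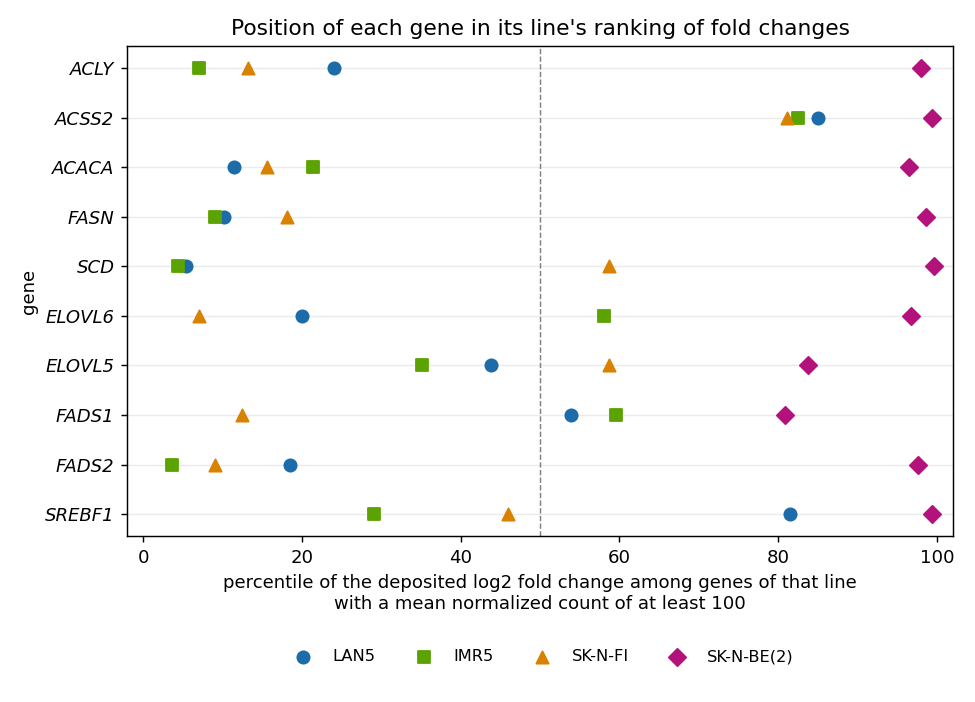
Percentile of each gene's deposited log2 fold change among genes of the same line whose mean reached 100 (x axis), for the 10 genes (y axis), with 1 symbol per line. The SK-N-BE(2) diamonds lie between 80.8 and 99.7, to the right of every other line's symbol in each row. Shrinkage, taken as strongest in SK-N-BE(2), limits the comparison of percentiles across lines.

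With the prior removed, the effect in SK-N-BE(2) lay above the mean of the sensitive lines by 1.00 ± 0.0595 for SCD, 0.99 ± 0.0640 for FADS2, 0.94 ± 0.0881 for FASN and 0.77 ± 0.105 for ACACA. The gap was smaller for ELOVL6 (0.58 ± 0.0786), SREBF1 (0.32 ± 0.110), FADS1 (0.23 ± 0.0595) and ELOVL5 (0.18 ± 0.0634). For ELOVL6 the mean hides IMR5, which differed from SK-N-BE(2) by -0.07 ± 0.126, and for SREBF1 it hides LAN5, which differed from it by 0.12 ± 0.149. For FADS1 the gap came mainly from SK-N-FI (-0.63 ± 0.0921 against SK-N-BE(2)), with LAN5 at -0.11 ± 0.0727 and IMR5 at 0.06 ± 0.0832. SK-N-FI differed from SK-N-BE(2) by 0.02 ± 0.0982 for ELOVL5 and by -0.23 ± 0.115 for SCD. The errors of these gaps hold no spread between lines. Of the 12649 genes tested in every line, 14 (0.111%) were called higher in SK-N-BE(2) and lower in each of the 3 sensitive lines, and ACLY, FADS2 and FASN were 3 of them. Without the SK-N-FI condition, 29 genes (0.229%) were lower in LAN5 and IMR5 and higher in SK-N-BE(2), 5 of them members, with ACACA and SCD added. ACSS2 was 1 of 17 genes (0.134%) called higher in all 4 lines.

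**Figure D4:**
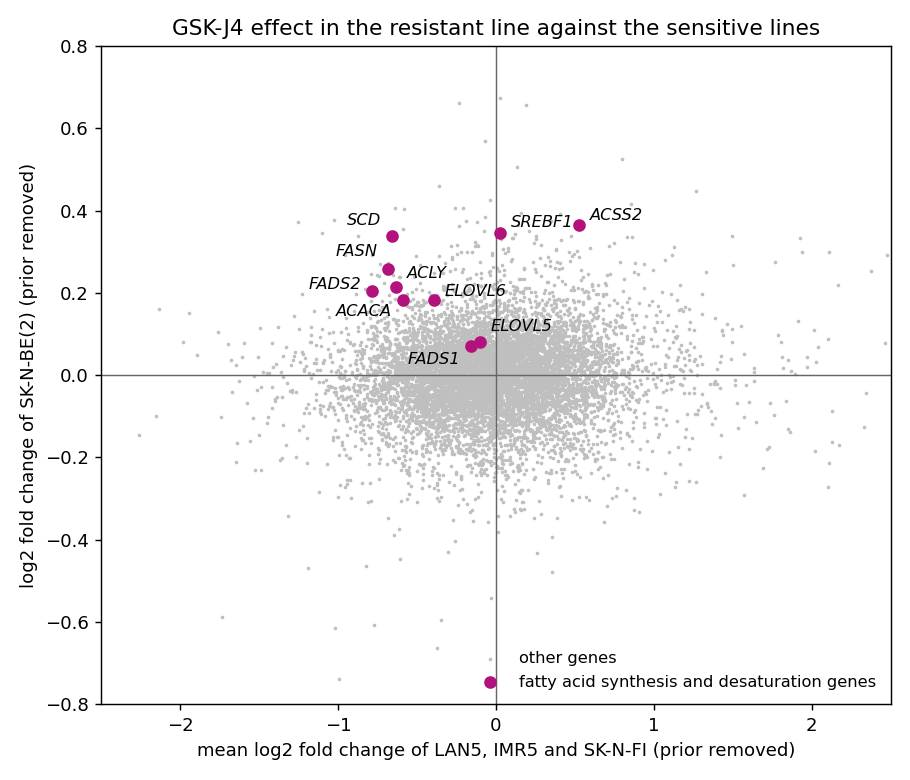
Prior-removed log2 fold change in SK-N-BE(2) (y axis) against the mean of LAN5, IMR5 and SK-N-FI (x axis) for genes whose mean reached 100 in all 4 lines, 8963 of 8982 within the axes, with the 10 genes in colour. SCD, FADS2, FASN, ACLY, ACACA and ELOVL6 lie in the upper left, ACSS2 in the upper right.

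Untreated levels differed between the lines most for ELOVL6, which ran from 148 in LAN5 over 144 in SK-N-BE(2) and 113 in SK-N-FI to 19.3 in IMR5, a 7.67-fold range. ACSS2 was highest in SK-N-FI and lowest in IMR5 (5.52-fold), SREBF1 highest in SK-N-BE(2) and lowest in SK-N-FI (5.34-fold), and FASN highest in LAN5 and lowest in SK-N-FI (4.95-fold). FADS2 and ELOVL5 were nearly level across the lines, within 1.19-fold and 1.23-fold. With no values of single libraries, neighbours in these orders cannot be told apart beyond their spread. Per kilobase of exon, SCD and then ACLY came first in all 4 lines, with untreated SCD at 75.1 in SK-N-FI, 169 in IMR5, 121 in LAN5 and 133 in SK-N-BE(2). Summed over the 10 genes, the level went from 3179 to 2108 in LAN5, 3364 to 2122 in IMR5, 2025 to 1644 in SK-N-FI and 3239 to 3788 in SK-N-BE(2), so that the treated LAN5 and IMR5 cells came close to the untreated SK-N-FI level. SCD and ACLY were among the 3 largest terms of the untreated sum in each line.

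Around these enzymes, 9 lists of related genes were read in the same tables, and their counts stand beside the shares of all genes given above. Among 24 SREBP and lipogenic regulators, 6 rose and 9 fell of 23 tested in LAN5, 10 and 5 of 24 in IMR5, 12 and 3 of 23 in SK-N-FI, and 2 and 0 of 23 in SK-N-BE(2). The list's median log2 fold change was -0.16, 0.17, 0.29 and 0.02 in that order, from the authors' deposited tables. SREBF2, which encodes the SREBP of the cholesterol pathway, rose in LAN5, IMR5 and SK-N-FI, at 0.39 ± 0.0588, 1.02 ± 0.0831 and 0.74 ± 0.0904 in the authors' deposited tables. INSIG2, which retains SREBP in the endoplasmic reticulum, rose by 0.46 ± 0.106, 0.74 ± 0.114 and 1.00 ± 0.109 there, and RNF139, a ubiquitin ligase of that membrane, by 0.57, 0.42 and 0.79 in the authors' deposited tables. In SK-N-BE(2) the 2 genes that rose were INSIG1 (0.28 ± 0.0555, adjusted p = 8.08e-05) and LPIN1 (0.20 ± 0.0455, 0.00160) in the authors' deposited table. INSIG1, a feedback partner of SREBP that is itself an SREBP target, fell in LAN5, at -0.49 ± 0.0891, and rose in SK-N-FI by 0.29 ± 0.114 in the authors' deposited tables.

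Cholesterol synthesis and uptake is the sister pathway under SREBP control. Of its 22 genes, 11 fell and 3 rose in LAN5 and 10 fell and 2 rose in IMR5. In SK-N-FI 7 fell and 3 rose of 21 tested, and in SK-N-BE(2) 6 rose and none fell of 21 (12 higher and 0 lower at an unadjusted DESeq2 p under 0.05). The median log2 fold change of the list was -0.29, -0.21, 0.03 and 0.12 in that order, from the authors' deposited tables. FDPS, which makes farnesyl diphosphate, had -0.55 ± 0.10, -0.64 ± 0.0708, -0.84 ± 0.122 and 0.24 ± 0.0533 in LAN5, IMR5, SK-N-FI and SK-N-BE(2) in the authors' deposited tables and passed in each. DHCR7 fell in LAN5 and IMR5 and rose in SK-N-BE(2) by 0.26 ± 0.0589 (adjusted p = 0.00170) in the authors' deposited table, while PMVK, of the mevalonate steps, fell in the sensitive lines and had -0.01 ± 0.0640 in SK-N-BE(2).

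Substrate supply and chain modification outside the members showed no call in SK-N-BE(2). Of 11 genes of citrate and NADPH supply, 4 rose and 6 fell in LAN5, 3 and 5 in IMR5, 3 and 3 in SK-N-FI, with 0 called in SK-N-BE(2) by the authors' DESeq2 test. ME1, malic enzyme, which yields NADPH, rose by 2.21 ± 0.0684, 0.92 ± 0.108 and 0.65 ± 0.101 in the sensitive lines in the authors' deposited tables, against 0.02 ± 0.0662 in SK-N-BE(2). IDH2 fell there, at -1.24, -0.20 and -0.57, and MTHFD1 at -0.73, -0.52 and -0.60, in the authors' deposited tables. Among 14 other elongases, desaturases and elongation-cycle genes, of which 13 were tested in each sensitive line, 4 rose and 4 fell in LAN5, 5 and 2 in IMR5 and 3 and 2 in SK-N-FI, with 0 called of 11 in SK-N-BE(2). FADS3, the third gene of the FADS cluster, rose in LAN5, IMR5 and SK-N-FI, at 2.71 ± 0.209, 2.16 ± 0.177 and 0.84 ± 0.153 in the authors' deposited tables, opposite in sign to FADS2. ELOVL4, which makes very long chains, rose by 0.63, 0.70 and 0.46 there, and HACD3 fell, at -0.35, -0.40 and -0.45, in the authors' deposited tables.

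Fatty acid activation, storage and oxidation were mixed. Of 15 acyl-CoA synthetase and uptake genes, 2 rose and 4 fell of 13 tested in LAN5, 6 and 4 of 14 in IMR5, 2 and 3 of 12 in SK-N-FI, and 1 and 0 of 11 in SK-N-BE(2). FABP5, a fatty acid carrier, fell, at -1.54 ± 0.213, -1.34 ± 0.0730 and -1.38 ± 0.211 in the sensitive lines and had -0.10 ± 0.0512 in SK-N-BE(2) in the authors' deposited tables. ACSL3, which loads fatty acids onto coenzyme A, was the gene of this list that rose in SK-N-BE(2). Its log2 fold change there was 0.23 ± 0.0443 in the authors' deposited table (DESeq2 adjusted p = 3.44e-05). It also rose in SK-N-FI, by 0.29 ± 0.0790, fell in LAN5, at -0.28 ± 0.0674, and had 0.05 ± 0.0645 in IMR5. SLC27A1, a fatty acid transport protein, had 0.67, 0.89 and 0.96 in the authors' deposited tables of the sensitive lines and rose in each. Of 21 glycerolipid genes, 7 rose and 7 fell of 20 tested in LAN5, 4 and 7 of 21 in IMR5, 4 and 4 of 20 in SK-N-FI and 0 of 21 in SK-N-BE(2). GPAM, which starts glycerolipid synthesis, fell, at -0.84, -0.51 and -0.35 in the sensitive lines in the authors' deposited tables, LPCAT1 fell, at -1.51, -0.76 and -0.47, and CHKA rose by 0.91, 0.46 and 1.27.

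For fatty acid oxidation, 6 genes rose and 7 fell of 22 tested in LAN5, 10 and 5 of 22 in IMR5, 4 and 4 of 23 in SK-N-FI, and 1 and 0 of 21 in SK-N-BE(2). CPT1A, which carries long chains into mitochondria, rose by 0.23 ± 0.0964, 0.35 ± 0.0753 and 0.40 ± 0.0789 in LAN5, IMR5 and SK-N-FI, with -0.16 ± 0.0544 in SK-N-BE(2) (adjusted p = 0.0851), in the authors' deposited tables. DECR1, which helps oxidise unsaturated chains, fell, at -0.95, -0.75 and -1.32, and ACADM at -0.45, -0.36 and -0.40, in the authors' deposited tables. HADHA rose in SK-N-BE(2) by 0.14 ± 0.0416 (DESeq2 adjusted p = 0.0433) and in IMR5 by 0.36 ± 0.0735 (3.64e-06). It did not pass in LAN5 (-0.11 ± 0.0623) or SK-N-FI (0.17 ± 0.0860). Of 9 genes of mitochondrial fatty acid synthesis, a separate pathway, none rose in any line, 3 fell in LAN5, 4 fell in IMR5 and 4 fell in SK-N-FI, with MCAT at -1.18, -0.79 and -0.55 and CBR4 at -0.50, -0.19 and -0.52 in the sensitive lines in the authors' deposited tables. In SK-N-BE(2), at an unadjusted p under 0.05 from DESeq2, 0 genes of citrate and NADPH supply and 0 of the other elongation genes were called, against 2 higher and 1 lower of glycerolipid synthesis and 1 higher of mitochondrial fatty acid synthesis. Among 7 LXR targets, 3 rose and 2 fell in LAN5, 3 and 0 of 6 tested in IMR5, 3 and 0 of 6 in SK-N-FI, and 1 and 0 of 6 in SK-N-BE(2). MYLIP, which degrades the LDL receptor, rose by 1.28 ± 0.151, 0.77 ± 0.212 and 3.09 ± 0.250 in the sensitive lines in the authors' deposited tables. In SK-N-BE(2) it had 0.26 ± 0.0814, just short of the threshold (DESeq2 adjusted p = 0.0578). ABCG1 rose in SK-N-BE(2) by 0.30 ± 0.0672 (adjusted p = 0.000870) and in LAN5 by 1.16 ± 0.297 (0.000361), in the authors' deposited tables.

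**Figure D5:**
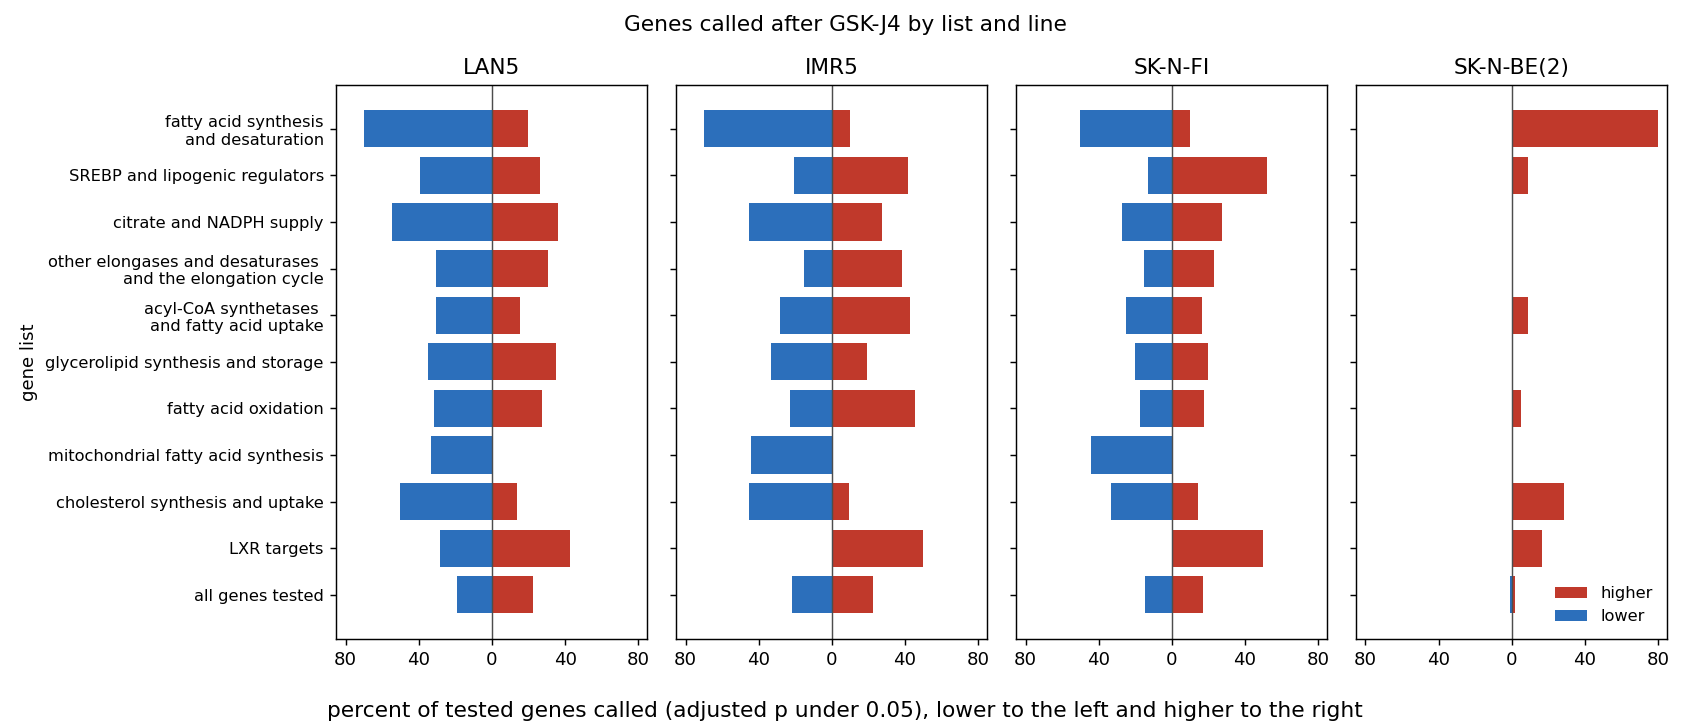
Percent of tested genes called at an adjusted p under 0.05 (x axis), lower to the left and higher to the right, for the 10 genes, the 9 related lists and all genes tested (y axis), 1 panel per line. In SK-N-BE(2) the members' bar stands for 8 of 10 genes and the cholesterol bar for 6 of 21, with 1.62% of all genes tested shown beside them.

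The lines carried the neuroblastoma markers used as a check, with 9 of 9 at 1 CPM or more in LAN5 and SK-N-BE(2). IMR5 and SK-N-FI had 8 of 9, and TH was not listed for them. The 4 adipocyte markers were each under 1 CPM or not listed in every line. Schwann and immune markers summed to at most 12.5 and 1.72 CPM, with markers not listed adding nothing. The 5 fibroblast markers summed to 2054 CPM in SK-N-BE(2), against 43.5 for LAN5, 69.9 for IMR5 and 149.5 for SK-N-FI, led in SK-N-BE(2) by LUM at 1242 and DCN at 740. In SK-N-BE(2) LUM (0.27 ± 0.0480) and COL3A1 (0.46 ± 0.0722) rose, COL1A1 fell (-0.27 ± 0.0700) and DCN had 0.16 ± 0.0754 (adjusted p = 0.417) in the authors' deposited table, with COL1A2 under 1 CPM. LUM was also 1 of the 14 genes called higher in SK-N-BE(2) and lower in each sensitive line. The part of these transcripts in the members' values was not tested. Table totals ran from 15458940 to 19445359 normalized counts, and mitochondrial genes held 4.12% to 7.24% of them.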

How the data were processed

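Polyadenylated RNA from the 24 libraries was prepared with a strand-specific kit, per the labels' protocols. Per the submitters' processing notes, FastQC, STAR and DESeq2 were used with hg38. Versions, annotation and counting are not stated in the sources used here, nor is the direction of the contrast. For each line the authors compared treated with untreated libraries in 1 table. Its signal column is the mean normalized count over the line's libraries, per the file headers. The log2 fold changes with their errors, the Wald statistic (a score) and each raw or adjusted p-value were taken as deposited by the authors. The depth of single libraries is unknown, so intervals that need it were left out.

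The table read as SK-N-FI has a name near to that line's and was assigned by this likeness and by elimination. Signs were read as treated over untreated, since BBC3, which the study is known to report as induced, is positive in the sensitive lines (2.62, 3.31 and 1.88), and MT2A and SLC30A1 share their sign in SK-N-BE(2) (1.47 and 0.57), where BBC3 had -0.01. In the SK-N-BE(2) table the score departed from fold change over error by a median of 0.000382, so its prior-removed values rest on an assumption about how it was made.

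The prior was removed by taking its standard deviation as 2 times the table's largest standard error and solving for the unshrunken value, with the solution of smaller error above the mean where a running median over 501 genes peaks. The arithmetic was tested on simulated data made with such a prior, which does not show that the tables were made so. Untreated and treated levels assume equal group sizes. Errors of differences combine both lines' standard errors. The members and gene lists were chosen with earlier results of these data known. Named genes are all members, plus, per list, up to 3 called alike in the sensitive lines with the largest smallest change and up to 2 called in SK-N-BE(2), and the 5 nearest to FASN and to SCD over the 4 prior-removed values. A gene that this rule names is not reported here. Python 3.11.15, pandas 2.3.3, numpy 2.4.6 and Matplotlib 3.10.9 were used. Other thresholds, scalings and centrings were tried.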

Additional observations from a re-analysis of the deposited data

How the results depend on the processing

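Counts of members called lower and higher stayed within 1.5 times of the reported ones in each line at adjusted p under 0.01 or 0.1, at unadjusted p under 0.05, with adjustment over genes with a mean of at least 100, and after centring on the median of those genes, a choice made after seeing the data. The median over members in LAN5 moved from -0.50 to -0.42 when centred, by the construction of that setting, and the other 3 medians stayed within the spread. With the prior removed all 40 fold changes kept direction and call. This holds by construction, since that step multiplies a fold change and its error by the same positive factor. When centred, 38 of 40 kept both. The others were ELOVL5 in LAN5, which lost its call, and FADS1 in LAN5, which passed in neither setting and went from -0.035 to 0.051. The differences between SK-N-BE(2) and the sensitive lines kept their sign with deposited values. Centring per line moved every difference by the same amount, and another setting of the prior left them unchanged, so neither varied much. Levels changed by a factor of 0.966 to 1.08 under other scalings. No paired analysis was possible because values of single libraries were not used, which also left no library to omit. SK-N-BE(2) had the fewest genes tested, 13407, so weak genes were left untested there more often.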

Other observations

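The 29 genes called lower in LAN5 and IMR5 and higher in SK-N-BE(2) hold 24 besides the members. Chosen after their values were seen, DHCR7, FDPS and SQLE belong to cholesterol synthesis, and DBI encodes an acyl-CoA-binding protein. With the prior removed, the fold change (log2) of DBI was -0.18 in SK-N-FI, -1.10 in IMR5, -0.72 in LAN5 and 0.25 in SK-N-BE(2), and for SQLE, squalene epoxidase, it was -0.32, -0.75, -0.62 and 0.17 in the same order. KIF20A, a mitotic kinesin, showed the largest loss in LAN5 among the 14 genes that also fell in SK-N-FI, with -2.09 in SK-N-FI, -0.94 in IMR5, -3.37 in LAN5 and 0.16 in SK-N-BE(2).

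By Euclidean distance over the 4 prior-removed fold changes, among 8712 genes, the genes nearest to FASN were NACC1 (0.191), XXYLT1 (0.214), TSFM (0.223), POLD1 (0.225) and TMEM97 (0.233). ACACA was at rank 56 from FASN, ACLY at 86, FADS2 at 250 and SCD at 895, so several members were farther from FASN than genes outside the pathway. Nearest to SCD were VCAN (0.257), WDR92 (0.308), WDR46 (0.355), ASB13 (0.360) and DHX37 (0.366), with FASN at rank 163. All distances rest on 4 points, 1 from each table, and were not scaled by line, so SK-N-BE(2) with its small fold changes weighed little. In SK-N-BE(2) the 5 neighbours of FASN ran from 0.06 (XXYLT1) to 0.13 (NACC1), against 0.26 for FASN. Those of SCD ran from 0.05 (ASB13) to 0.13 (WDR92), against 0.34 for SCD.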
